A study of Mus musculus with 16 samples.

Results

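The data are the mRNA levels of 40 cell cycle genes in mouse liver, taken by symbol from a table of 56832 genes in 16 libraries, and kept because their mean over the libraries was above 0. All 40 genes were in the table, and all were among the 15128 genes with a mean value of at least 3 that were tested. They fall into 4 regulators of the step from G1 to S phase, 12 genes of S phase and 24 genes of G2 and mitosis. Liver RNA came from adult mice, 4 per genotype: Gclc L-KO (Gclc f/f, loss of the catalytic subunit of the enzyme that starts glutathione synthesis), Nrf2 L-KO (Nrf2 f/f, loss of a transcription factor of antioxidant genes), L-DKO (Gclc f/f and Nrf2 f/f together) and WT (Gclc wt/wt). Every mouse, WT included, received AAV-TBG-Cre through the tail vein and was examined 3 weeks later. The TBG promoter drives Cre in hepatocytes, so other liver cells keep their floxed genes, and the values are for whole liver. The question is how transcripts of DNA replication and cell division stand when glutathione synthesis, NRF2 or both are removed from hepatocytes.

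Most hepatocytes of an adult liver rest outside the cell cycle and can re-enter it after tissue loss or injury. Cyclins D and E with their kinases release E2F factors, which switch on the genes that copy DNA. Later, FOXM1 and its partners switch on the genes that condense, align and separate the chromosomes. Immune and endothelial cells of the liver can divide as well, and their transcripts are part of whole liver RNA.

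Of the 40 genes, 32 had a promoter in a RefSeq table of the GRCm38.p6 assembly that runs from 250 bases before to 50 bases after the gene start. *Ccnd1*, *Ccne2*, *Mcm4*, *Ccna2*, *Aurkb*, *Kif20a*, *Tpx2* and *Foxm1* had no entry. *Mcm7*, *Uhrf1*, *Prc1* and *Ect2* had 2 promoters each. Of any gene with more than 1, only the first listed was used. The windows were searched on both strands for the cell cycle genes homology region (CHR, TTTGAA or TTTAAA), for the CCAAT box, which is the site of NF-Y, and for E2F sites. The letters searched for an E2F site were TTCCCGC, and equally the spelling TTCGCGC, the spelling TTGCCGC and the spelling TTGGCGC. A CHR was found in 17 of the 19 promoters of mitosis genes (89.5%) and in 4 of the 11 of S phase genes (36.4%). It was in 27.8% of the 27025 promoters taken for all genes of the table. A CCAAT box was in 17 of 19 promoters of mitosis genes (89.5%), 9 of 11 of S phase genes (81.8%) and 37.9% of all. E2F sites ran the other way, with 4 of 19 (21.1%) for mitosis genes, 7 of 11 (63.6%) for S phase genes and 9.69% for all promoters. CCAAT and E2F matches shared bases in 3 of the 32 promoters, CHR and CCAAT matches in 1, E2F matches shared bases with each other in 4, and TTTAAA reads the same on both strands. The promoters of 4 genes are shown because the results turn on these genes. *Cdk1* and *Prc1* are mitosis genes that were far above WT in part of the L-DKO livers, *Mcm6* is an S phase gene that was higher in both L-DKO and Gclc L-KO, and *Tk1* an S phase gene that was lower in Gclc L-KO. Matches are in capitals.
Cdk1, chr10:69352863-69353162, minus strand: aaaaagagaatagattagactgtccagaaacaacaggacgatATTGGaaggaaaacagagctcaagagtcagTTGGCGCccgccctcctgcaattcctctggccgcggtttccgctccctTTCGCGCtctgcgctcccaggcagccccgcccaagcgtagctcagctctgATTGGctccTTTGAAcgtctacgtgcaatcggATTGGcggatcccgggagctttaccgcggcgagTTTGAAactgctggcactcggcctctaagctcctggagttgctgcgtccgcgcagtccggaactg
Prc1, chr7:80294201-80294500, plus strand: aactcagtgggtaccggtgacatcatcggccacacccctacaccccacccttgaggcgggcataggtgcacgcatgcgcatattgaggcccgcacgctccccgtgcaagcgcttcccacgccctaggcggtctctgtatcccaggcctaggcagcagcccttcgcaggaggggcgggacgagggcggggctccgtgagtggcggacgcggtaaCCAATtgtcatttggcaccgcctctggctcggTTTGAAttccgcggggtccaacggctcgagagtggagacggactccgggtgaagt
Mcm6, chr1:128359656-128359955, minus strand: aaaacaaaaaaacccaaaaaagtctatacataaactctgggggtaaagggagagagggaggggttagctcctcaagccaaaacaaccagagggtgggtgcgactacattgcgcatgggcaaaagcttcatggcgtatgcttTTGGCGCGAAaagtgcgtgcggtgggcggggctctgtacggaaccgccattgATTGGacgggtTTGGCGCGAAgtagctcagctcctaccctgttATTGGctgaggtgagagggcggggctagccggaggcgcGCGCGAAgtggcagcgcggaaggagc
Tk1, chr11:117825965-117826264, minus strand: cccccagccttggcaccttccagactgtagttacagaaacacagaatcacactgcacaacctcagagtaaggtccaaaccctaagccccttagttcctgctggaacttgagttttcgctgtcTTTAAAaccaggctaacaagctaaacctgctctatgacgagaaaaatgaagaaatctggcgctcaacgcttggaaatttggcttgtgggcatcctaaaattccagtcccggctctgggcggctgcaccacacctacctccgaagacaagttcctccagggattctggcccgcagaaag
The *Cdk1* window held matches to all 3 motifs, and the *Prc1* window held a CCAAT box and a CHR, which begins at position -5 from the gene start. *Mcm6* had E2F and CCAAT matches and no CHR. *Tk1* had only a TTTAAA match, and no CCAAT box or E2F site as spelled here lay in its window. A match is a string of letters, and binding was not measured.

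**Figure D1:**
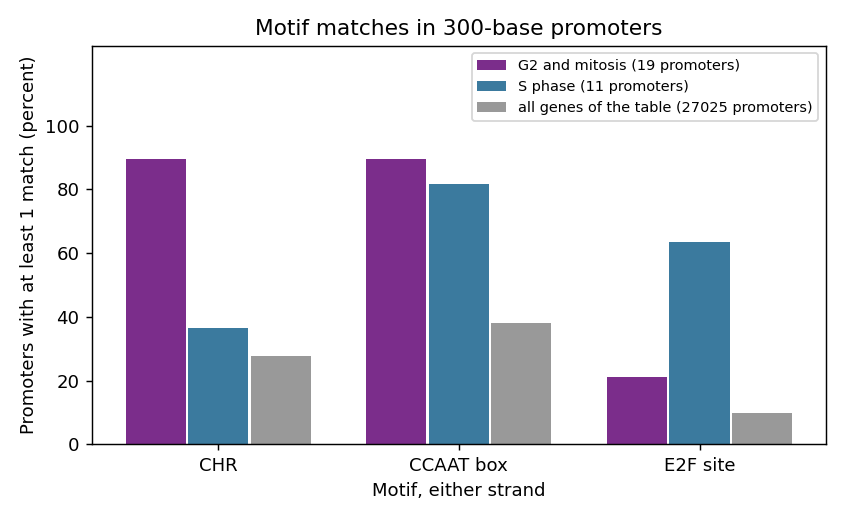
Share of promoters, in percent on the vertical axis, with at least 1 match to each motif, for mitosis genes (19 promoters), S phase genes (11) and all genes of the table (27025). The CHR was in 89.5% of mitosis promoters and 36.4% of S phase promoters, and E2F sites were in 21.1% and 63.6%.

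The values are rlog values, log2 read counts scaled between libraries and pulled toward a gene's mean, the more so the fewer its reads. The median of the tested genes was 8.33 to 8.38 in each library. Read counts and depth are not in the table. Levels were not divided by transcript length, so a gene is compared across libraries and not with other genes. *Gclc* itself was not lower in the libraries labelled Gclc L-KO, at 13.01, 12.81, 13.84 and 14.06, against 13.00, 12.96, 13.40 and 13.52 in WT (log2 difference 0.21, limma adjusted p = 0.535), and *Nfe2l2*, which encodes NRF2, was not lower in those labelled Nrf2 L-KO (log2 difference 0.62, adjusted p = 0.567). Of the same 2 genes, *Gclc* was lower in L-DKO than in WT (log2 difference -1.75, adjusted p = 0.000972) and *Nfe2l2* was higher (1.20, adjusted p = 0.00415). A value per gene can hold reads from exons that Cre does not remove, so these values do not check the deletions. The genotype names are those of the labels throughout. *Nqo1*, a target gene of NRF2, had 11.82, 12.61, 12.64 and 12.79 in Gclc L-KO, against 8.81, 9.16, 8.31 and 8.05 in WT. The log2 difference was 3.88 (limma adjusted p = 1.5e-06) there, 0.0017 (adjusted p = 0.999) in L-DKO and -0.70 (adjusted p = 0.72) in Nrf2 L-KO. *Xist*, made in female cells, had 7.95 to 8.91 in the livers numbered 3 and 4 and 14.10 to 14.65 in those numbered 1 and 2, whatever the genotype. The labels do not give sex. Results are therefore given also within replicates 3 and 4 and within replicates 1 and 2, and any other difference between these pairs cannot be told apart from sex.

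L-DKO replicates 3 and 4 stood apart from the other 14 libraries. They were the 2 highest of the 16 libraries for 30 of the 40 genes, against 7.01% of all tested genes. This held for 23 of the 24 mitosis genes, 7 of the 12 S phase genes and 0 of the 4 G1 to S regulators. Among the 23 mitosis genes, the lower of these 2 libraries exceeded the third highest library by 0.22 to 1.29 log2 units (median 0.84). The exception was *Kif23*, a kinesin of the central spindle. The mean over the 24 mitosis genes, set against the WT mean, was 0.53, 0.26, 2.12 and 1.76 in L-DKO replicates 1 to 4, against 0.12, -0.04, 0.01 and -0.09 in the WT libraries. For Gclc L-KO the same mean was 0.12, 0.80, 0.76 and 0.84, and for Nrf2 L-KO it was 0.33, 0.45, -0.21 and 0.58. In words, 2 L-DKO livers were far above WT, the other 2 lay within the range of the Gclc L-KO and Nrf2 L-KO livers, and 1 Gclc L-KO liver was at the level of the highest WT liver. Over the 12 S phase genes L-DKO had means of 0.25, 0.13, 0.73 and 0.82 and Gclc L-KO of 0.06, 0.36, 0.42 and 0.36, against 0.01, -0.02, -0.02 and 0.03 in WT. In whole liver RNA, more cells in the cycle and more of these transcripts per cell cannot be told apart.

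**Figure D2:**
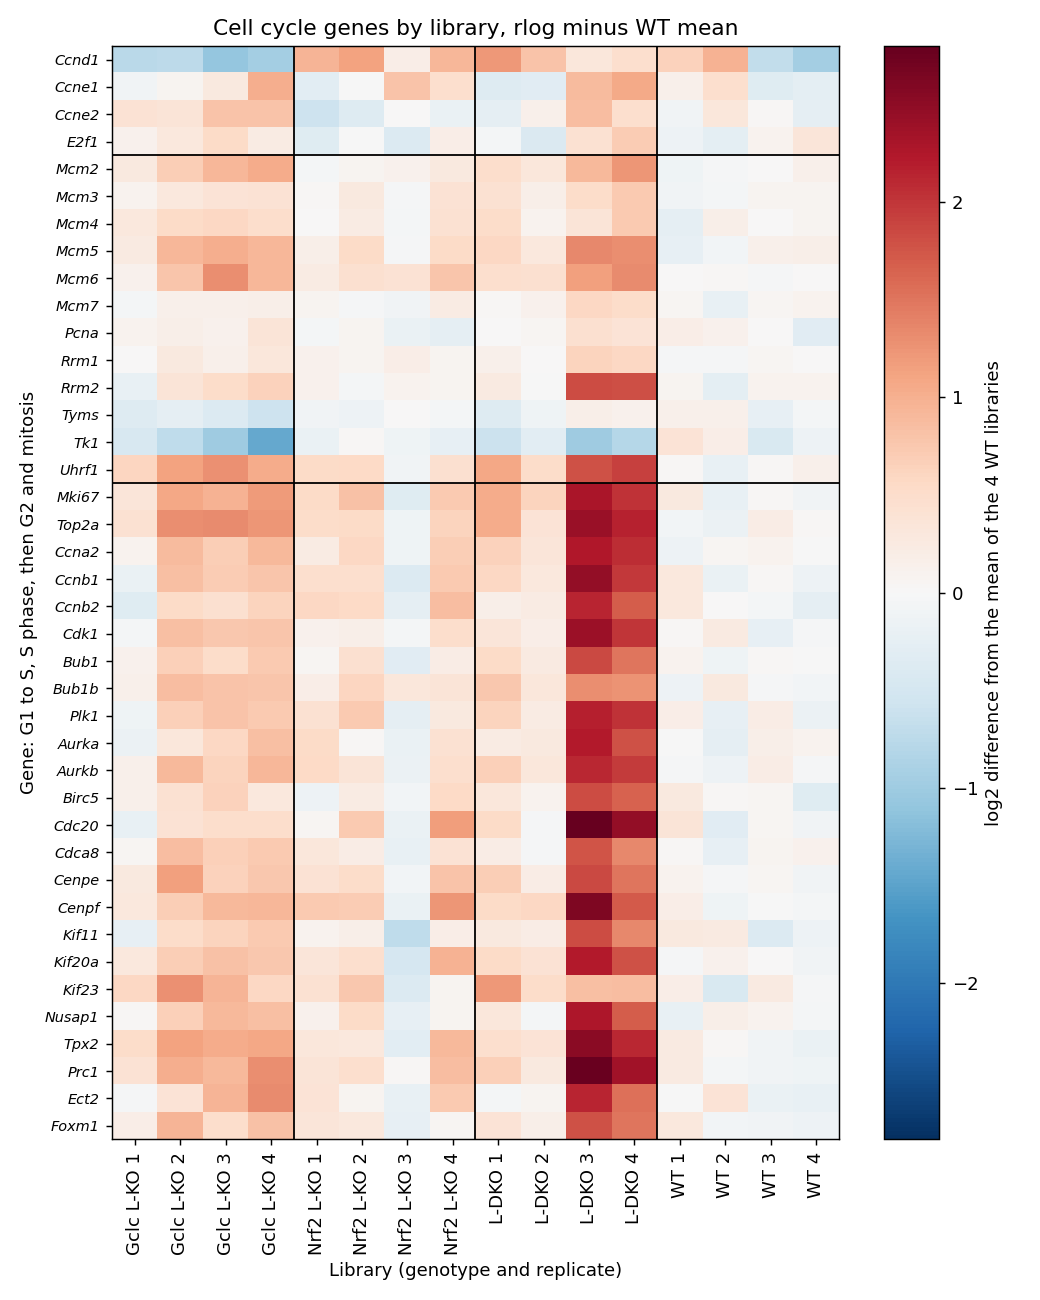
Heat map of the 40 genes (rows, by role) in the 16 libraries (columns, by genotype and replicate). Colour is the rlog value minus the mean of the 4 WT libraries, on the log2 scale, and the reddest block is the mitosis genes in L-DKO replicates 3 and 4, which were the 2 highest libraries for 23 of 24 of them.

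**Figure D3:**
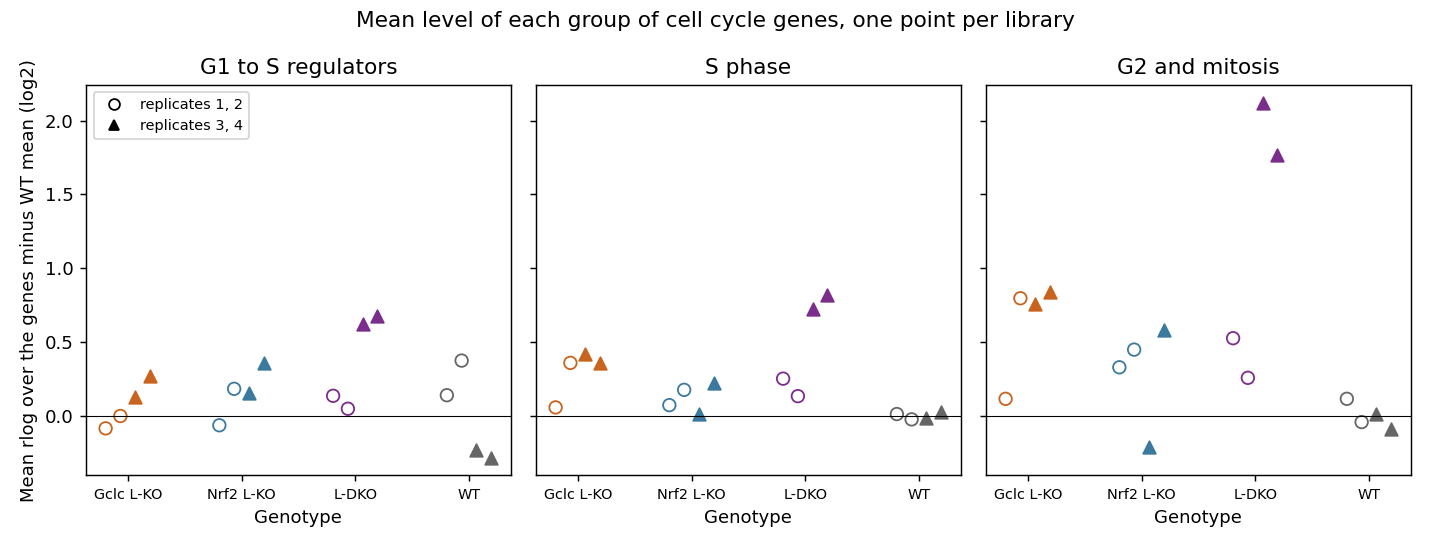
Mean rlog value over the genes of each role minus the WT mean (log2, vertical axis), 1 point per library, with circles for replicates 1 and 2 and triangles for replicates 3 and 4. In the mitosis panel L-DKO replicates 3 and 4 lie at 2.12 and 1.76, and L-DKO replicates 1 and 2 at 0.53 and 0.26.

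L-DKO livers had higher levels of 18 of the 40 genes than WT livers, and 0 were lower (limma, Benjamini-Hochberg adjusted p up to 0.05 over all 15128 genes). Among all genes tested, 3.79% were called higher and 6.17% lower. The 18 were 13 of 24 mitosis genes, 5 of 12 S phase genes and 0 of 4 G1 to S regulators. The median log2 difference was 1.18 over the mitosis genes, 0.44 over the S phase genes and 0.0019 over all genes tested. All 24 mitosis genes had a positive difference, between 0.82 and 1.51, and every L-DKO library lay above every WT library for 19 of the 40 genes, against 8.16% of all genes. The count of 18 rests on single libraries. It was 32, 1 and 1 without L-DKO replicates 2, 3 and 4, it was 4, 3, 5 and 5 without WT replicates 1 to 4, and 0 with L-DKO replicates 3 and 4 both left out. With the replicate pair (1 and 2, or 3 and 4) as a term of the fit, 28 genes were called higher and 1 lower (7.66% and 11% of all genes), namely 19 mitosis genes and 9 S phase genes higher and *Tk1* lower, and with only the L-DKO and WT livers in the fit 4 were called higher and 0 lower (1.71% and 3.07%).

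Among the mitosis genes, *Mki67*, whose product Ki-67 coats mitotic chromosomes and serves as a marker of dividing cells, had 8.07, 7.66, 9.31 and 9.07 in L-DKO, against 7.30, 6.83, 7.06 and 6.94 in WT. All 4 L-DKO libraries were above all WT libraries, and the log2 difference was 1.49 (standard error 0.34, adjusted p = 0.0155) by limma. *Top2a*, the topoisomerase that untangles sister chromosomes, had 7.52, 6.86, 8.89 and 8.63 in L-DKO, against 6.42, 6.32, 6.68 and 6.51 in WT. Here too the groups did not overlap, with a log2 difference of 1.49 (standard error 0.36, adjusted p = 0.0207). *Prc1*, which bundles microtubules of the spindle midzone and whose promoter is shown above, had 5.93, 5.54, 8.03 and 7.63 in L-DKO, against 5.53, 5.23, 5.18 and 5.15 in WT. L-DKO replicate 2 was just above the highest WT library and the log2 difference was 1.51 (standard error 0.43, adjusted p = 0.0416). *Tpx2*, which starts spindle microtubules, had 5.45, 5.36, 7.51 and 7.10 in L-DKO, against 5.25, 5.02, 4.88 and 4.81 in WT, a log2 difference of 1.37 (standard error 0.41, adjusted p = 0.0471). *Cenpf*, a kinetochore protein, had 5.01, 5.06, 7.09 and 6.21 in L-DKO, against 4.67, 4.37, 4.47 and 4.43 in WT, and differed by 1.36 (standard error 0.39, adjusted p = 0.0415) on the log2 scale. *Ccna2*, cyclin A2 of S phase and early mitosis, had 6.27, 5.97, 7.88 and 7.69 in L-DKO, against 5.49, 5.68, 5.74 and 5.62 in WT, and differed by 1.32 (standard error 0.36, adjusted p = 0.0343). In these last 3 genes too, no L-DKO library was below a WT library, and L-DKO replicates 3 and 4 made the larger part of the gap. The other 7 called were the spindle checkpoint proteins *Bub1* and *Bub1b*, the mitotic kinases *Plk1* and *Aurkb*, the kinetochore motor *Cenpe* and the cytokinesis kinesins *Kif20a* and *Kif23*, with log2 differences of 0.86 to 1.26. The 11 mitosis genes that missed the threshold had differences of 0.82 to 1.46 and adjusted p of 0.0552 to 0.168. With the pair as a term, 6 of these 11 were called, which were *Ccnb1*, *Cdk1*, *Aurka*, *Birc5*, *Cdc20* and *Foxm1*.

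Of the S phase genes, *Uhrf1*, which helps to copy DNA methylation onto new strands, had 6.07, 5.51, 6.77 and 6.90 in L-DKO, against 5.03, 4.77, 5.02 and 5.14 in WT. Its log2 difference was 1.32 (standard error 0.26, adjusted p = 0.00848), and it was the only one of the 18 called whichever of the 8 libraries was left out. *Mcm2*, *Mcm3*, *Mcm5* and *Mcm6* encode subunits of the hexamer that opens DNA at replication origins. *Mcm5* had 7.17, 6.89, 7.94 and 7.90 in L-DKO, against 6.36, 6.52, 6.74 and 6.77 in WT, a log2 difference of 0.88 (standard error 0.24, adjusted p = 0.0338). *Mcm6* had 7.93, 7.91, 8.60 and 8.78 in L-DKO, against 7.46, 7.49, 7.42 and 7.46 in WT, a log2 difference of 0.85 (standard error 0.23, adjusted p = 0.0352). Neither gene overlapped between the groups. *Mcm2* had 7.58, 7.41, 8.0 and 8.33 in L-DKO, against 6.99, 7.06, 7.11 and 7.23 in WT, a log2 difference of 0.73 (standard error 0.19, adjusted p = 0.0268). *Mcm3* had 7.77, 7.52, 7.86 and 8.08 in L-DKO, against 7.25, 7.30, 7.43 and 7.42 in WT, a log2 difference of 0.46 (standard error 0.12, adjusted p = 0.0347). Both were again above WT in every L-DKO library. The other 2 subunits were not called, with log2 differences of 0.43 for *Mcm4* (adjusted p = 0.0647) and 0.31 for *Mcm7* (adjusted p = 0.108). *Tk1*, thymidine kinase of the salvage pathway, was the S phase gene with the largest negative difference, -0.68 (standard error 0.21, adjusted p = 0.0509), which missed the threshold and passed with the pair as a term (adjusted p = 0.00511). It had 8.62, 8.93, 8.24 and 8.42 in L-DKO, against 9.62, 9.41, 8.81 and 9.08 in WT, and L-DKO replicate 2 lay above WT replicate 3.

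Within replicates 3 and 4, 35 of the 40 genes were called higher and 1 lower in L-DKO than in WT, where 10.9% of all genes were called higher and 14.1% lower. Mitosis genes made up 23 of the 35, with a median log2 difference of 2.04 over the 24, S phase genes 9 and G1 to S regulators 3. Without any 1 of those 4 libraries, 31 to 34 genes were called. Within replicates 1 and 2, 0 genes were called higher and *Tk1* was lower, with a log2 difference of -0.74 (standard error 0.17, limma adjusted p = 0.0471). There 1.12% of all genes were called higher and 1.68% lower. An unadjusted p under 0.05 was found for 11 of the 40 genes and for 3405 of all 15128. The call of *Tk1* was lost without L-DKO replicate 1, WT replicate 1 or WT replicate 2. The median over the mitosis genes was 0.38 there. The difference of the 2 effects was tested in the same limma fit. It was positive for 39 of the 40 genes and called for 15, all larger in replicates 3 and 4, against 1.94% of all genes larger there and 2.39% smaller. These were 12 mitosis genes, the S phase genes *Rrm2* and *Pcna*, and *Ccne1*. The median difference of the effects was 1.63 over the mitosis genes and -0.0074 over all genes. With 2 livers per genotype and pair, this count too rests on single libraries. It was 0 without WT replicate 1, 3 or 4, and 6, 3 and 1 without L-DKO replicates 1, 2 and 3.

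*Cdc20*, the activator of the anaphase-promoting complex, had 5.45, 4.89, 7.82 and 7.38 in L-DKO, against 5.29, 4.60, 4.98 and 4.82 in WT. L-DKO replicates 1 and 2 lay among or near the WT values and replicates 3 and 4 more than 2 log2 units above them. The log2 difference from WT was 2.7 in replicates 3 and 4 and 0.23 in replicates 1 and 2, and the 2 effects differed by 2.47 (standard error 0.59, adjusted p = 0.0414) in limma. *Cdk1*, the kinase that drives entry into mitosis, had 5.95, 5.80, 8.01 and 7.62 in L-DKO, against 5.64, 5.86, 5.37 and 5.58 in WT. Its effects were 2.34 and 0.12 in the 2 pairs and differed by 2.21 (standard error 0.38, adjusted p = 0.0158). *Prc1*, whose values are given above, had effects of 2.67 and 0.35, a difference of 2.31 (standard error 0.41, adjusted p = 0.0167). These 3 genes share the pattern that almost the whole gap from WT was in 1 pair. *Ect2*, a regulator of the contractile ring in cytokinesis, had 5.83, 5.96, 8.02 and 7.41 in L-DKO, against 5.87, 6.27, 5.69 and 5.67 in WT, and the effects differed by 2.21 (standard error 0.42, adjusted p = 0.0215). *Ccnb2*, a partner of the CDK1 kinase, had 4.97, 5.04, 6.94 and 6.51 in L-DKO, against 5.11, 4.81, 4.75 and 4.56 in WT, and the effects differed by 2.03 (standard error 0.48, adjusted p = 0.0407). For *Tpx2* they differed by 2.19 (standard error 0.45, adjusted p = 0.0263). *Ect2* in replicates 1 and 2 was not above WT, with a log2 difference of -0.17. *Plk1*, *Aurka*, *Birc5* (survivin of the chromosomal passenger complex), *Kif11* (the kinesin that pushes spindle poles apart), *Nusap1* and *Foxm1* also passed, with differences between the effects of 1.49 to 1.89. *Kif23* ran the other way without a call (0.73 in replicates 3 and 4 and 0.98 in replicates 1 and 2).

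Of the S phase genes, *Rrm2*, the inducible subunit of ribonucleotide reductase, had 7.28, 7.02, 8.86 and 8.84 in L-DKO, against 7.11, 6.75, 7.12 and 7.14 in WT. Replicates 3 and 4 were above all other libraries, and the effects of 1.72 and 0.22 differed by 1.5 (standard error 0.26, adjusted p = 0.0158) in limma. *Pcna*, the sliding clamp of DNA polymerases, had 8.92, 8.95, 9.35 and 9.27 in L-DKO, against 9.08, 9.01, 8.92 and 8.58 in WT. Its effects were 0.56 and -0.11, a difference of 0.67 (standard error 0.16, adjusted p = 0.0435). *Uhrf1* and the *Mcm* genes did not pass this test, with differences of 0.15 to 0.86 and adjusted p of 0.124 to 0.817. *Ccne1*, cyclin E1, had 4.37, 4.41, 5.61 and 5.79 in L-DKO, against 4.88, 5.21, 4.39 and 4.47 in WT, so that L-DKO was above WT in replicates 3 and 4 and below it in replicates 1 and 2. Its effects of 1.27 and -0.65 differed by 1.92 (standard error 0.32, adjusted p = 0.0158), a call lost without WT replicate 1, 3 or 4. The same split stood in the other genotypes, where Gclc L-KO had 4.65, 4.81, 5.01 and 5.75 and Nrf2 L-KO had 4.45, 4.72, 5.54 and 5.21. There the effects of the 2 pairs differed by 1.26 (adjusted p = 0.0918) and 1.41 (adjusted p = 0.12), neither called, and WT itself averaged 4.43 in replicates 3 and 4 and 5.04 in replicates 1 and 2. In replicates 3 and 4 Gclc L-KO was higher than WT by 0.95 (standard error 0.23, adjusted p = 0.00921), a call lost without Gclc L-KO replicate 4 or WT replicate 3.

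**Figure D4:**
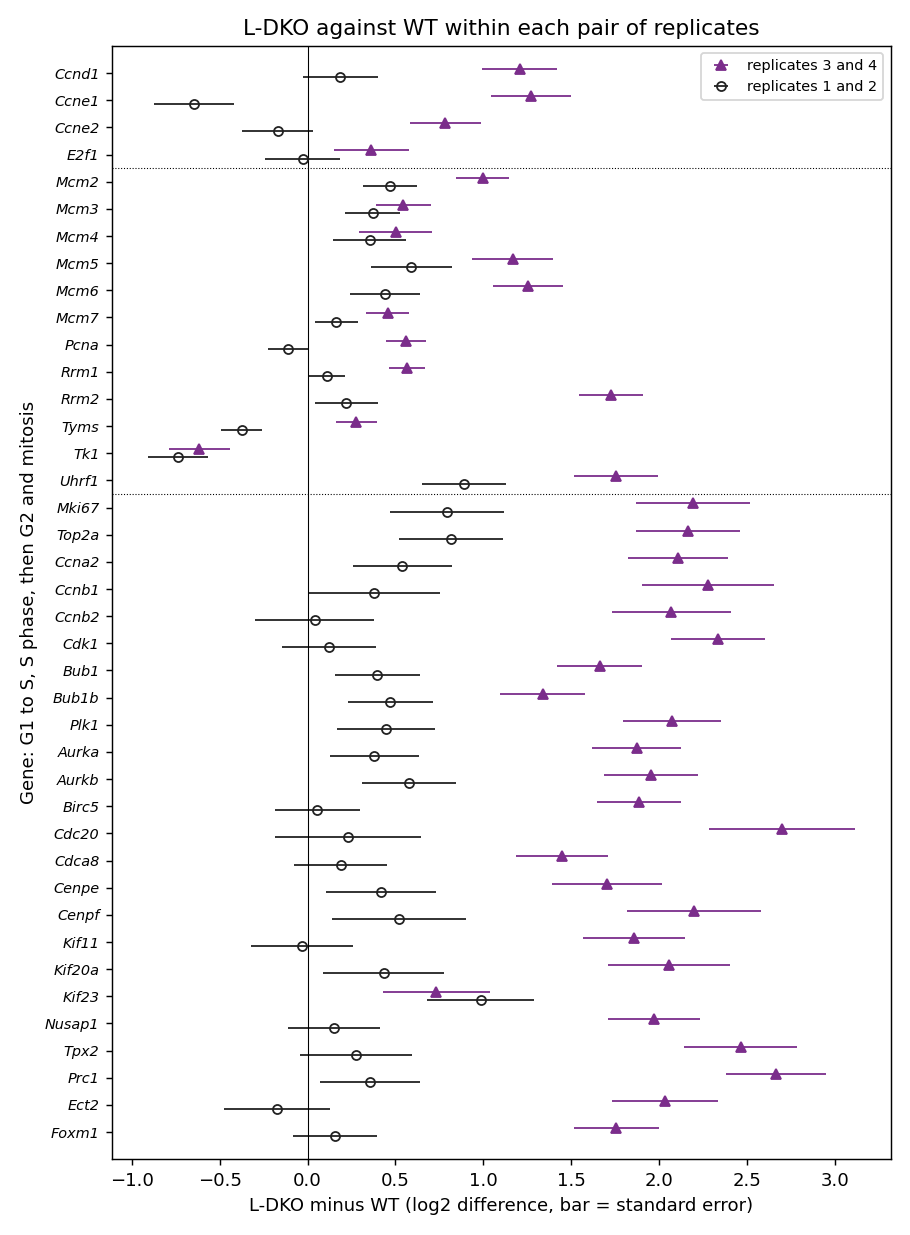
Log2 difference of L-DKO from WT (horizontal axis, bars are standard errors of the limma fit, 2 livers per genotype and pair) for each of the 40 genes, with triangles for replicates 3 and 4 and open circles for replicates 1 and 2. Triangles lie to the right of circles for all genes except Kif23, and Tk1 is left of 0 in both pairs.

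Gclc L-KO livers had higher levels of 8 of the 40 genes than WT livers and lower levels of 2, where 10.6% of all genes were called higher and 12.4% lower. The higher ones were 5 S phase genes and 3 mitosis genes, and both lower ones were S phase genes. The median log2 difference was 0.32 over the S phase genes, 0.63 over the mitosis genes and 0.003 over all genes. The number called was 5, 3 and 4 without Gclc L-KO replicates 2, 3 and 4, 4 without WT replicate 1 and 7 to 11 without any 1 of the others. Only *Tk1*, *Mcm2* and *Uhrf1* were called in all of these fits. Within replicates 3 and 4, 17 genes were higher and 1 lower (13.7% and 16.2% of all genes), and within replicates 1 and 2, 3 were higher and 3 lower (5.13% and 5.37%). The 18 calls in replicates 3 and 4 fell to 11 and 5 without Gclc L-KO replicates 3 and 4 and to 9 and 6 without WT replicates 3 and 4. The 6 calls in replicates 1 and 2 became 11 and 1 without Gclc L-KO replicates 1 and 2 and 1 and 2 without WT replicates 1 and 2. For the difference between the pairs, 7 of the 40 genes had an unadjusted p under 0.05, as did 2310 of all 15128 genes. It was called for 0 of the 40 genes (0.225% of all genes higher and 0.674% lower). Without Gclc L-KO replicate 3 it was called for 1.

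*Uhrf1* had 5.59, 6.11, 6.28 and 6.03 in Gclc L-KO, all above the WT values given earlier, and a log2 difference of 1.01 (standard error 0.26, adjusted p = 0.0139). *Mcm2* had 7.38, 7.78, 8.02 and 8.13 in Gclc L-KO, and *Mcm4* had 7.68, 7.92, 7.95 and 7.87, against 7.12, 7.54, 7.38 and 7.46 for *Mcm4* in WT. Both were above WT in every library, by 0.73 (standard error 0.19, adjusted p = 0.0132) and 0.48 (standard error 0.14, adjusted p = 0.0249). *Mcm5* had 6.85, 7.54, 7.62 and 7.54 and *Mcm6* had 7.58, 8.24, 8.77 and 8.39 in Gclc L-KO, with log2 differences of 0.79 (standard error 0.24, adjusted p = 0.0287) and 0.79 (standard error 0.23, adjusted p = 0.025). In both genes replicate 1 was the lowest of the 4 and still above the highest WT library. *Tk1* had 8.77, 8.51, 8.25 and 7.79 in Gclc L-KO, all below the lowest WT library, a log2 difference of -0.90 (standard error 0.21, adjusted p = 0.00758). *Tyms*, thymidylate synthase, had 7.23, 7.34, 7.22 and 7.02 in Gclc L-KO, against 7.73, 7.74, 7.36 and 7.54 in WT, and a log2 difference of -0.39 (standard error 0.12, adjusted p = 0.0303), with no overlap of the groups. Both enzymes make thymidine nucleotides, and *Tyms* in L-DKO was not called against WT (log2 difference -0.05, adjusted p = 0.828). Of the mitosis genes, *Top2a* had 6.91, 7.78, 7.80 and 7.72 in Gclc L-KO and a log2 difference of 1.07 (standard error 0.36, adjusted p = 0.0438). *Kif23* had 6.03, 6.74, 6.42 and 6.05 in Gclc L-KO, against 5.65, 5.03, 5.72 and 5.44 in WT, and a log2 difference of 0.85 (standard error 0.24, adjusted p = 0.021). *Bub1b*, a kinase-like protein of the spindle checkpoint, had 5.45, 6.18, 6.11 and 6.08 in Gclc L-KO, against 5.17, 5.58, 5.28 and 5.23 in WT, and a log2 difference of 0.64 (standard error 0.21, adjusted p = 0.0422). Replicate 1 of Gclc L-KO was low in most mitosis genes and overlapped with WT for *Bub1b*. *Top2a* was no longer called when any 1 library other than Gclc L-KO replicate 1 was left out, *Bub1b* when any other than Gclc L-KO replicate 1 or WT replicate 2 was, and *Kif23* without Gclc L-KO replicate 2 or 3 or WT replicate 2. *Mcm4*, *Mcm5*, *Mcm6* and *Tyms* each lost the call without Gclc L-KO replicate 3 or 4 or WT replicate 1. *Mcm4* and *Mcm5* lost it also without Gclc L-KO replicate 2, *Mcm5* and *Tyms* without WT replicate 2 and *Mcm6* without WT replicate 3.

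Nrf2 L-KO livers differed from WT livers in 0 of the 40 genes by limma, where 0.0132% of all genes were called higher and 0.126% lower. Of the 40, 1 had an unadjusted p under 0.05 (*Ccnd1*), as did 1046 of all 15128 genes. The median log2 difference was 0.23 over the 40 genes and -0.0047 over all genes. For the mitosis genes the differences lay between -0.07 and 0.63, and the 95% interval for *Mki67* was -0.28 to 1.16. All 4 libraries were above WT for 2 of the 40 genes (1.83% of all genes). Within replicates 1 and 2 no gene was called by limma (0.0859% of all genes called higher and 0.145% lower). There 4 of the 40 had an unadjusted p under 0.05, as did 2124 of all 15128 genes. Replicate 3 was the lowest Nrf2 L-KO library in most mitosis genes, for example in *Prc1* with 5.63, 5.74, 5.30 and 6.13 in Nrf2 L-KO, against 5.53, 5.23, 5.18 and 5.15 in WT.

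L-DKO was above Gclc L-KO in 1 of the 40 genes and below it in 0 (3.84% and 4.8% of all genes). The gene was *Ccnd1*, and it is treated with the cyclins. The mitosis genes had positive differences in 24 of 24 cases (median 0.59) with no call. Of the 40 genes, 3 had an unadjusted p under 0.05, as did 3579 of all 15128 genes. In replicates 3 and 4, 24 of the 40 genes were called higher and 0 lower (8.73% and 8.28% of all genes). There the log2 difference from Gclc L-KO was 2.19 (standard error 0.42, adjusted p = 0.00508) for *Cdc20*. *Rrm2* differed by 1.24 (standard error 0.18, adjusted p = 0.00113) and *Prc1* by 1.45 (standard error 0.29, adjusted p = 0.00622) on the log2 scale. The licensing genes *Mcm2* and *Mcm6* differed by 0.09 (95% interval -0.24 to 0.43) and 0.11 (-0.33 to 0.55), neither called. The 24 calls fell to 11 and 16 without L-DKO replicates 3 and 4 and to 9 and 14 without Gclc L-KO replicates 3 and 4. In replicates 1 and 2, 1 gene was called higher (*Ccnd1*) and 0 lower (1.01% and 2.17%). The difference between the pairs was called for 0 of the 40 genes (0.0925% of all genes in each direction). It was thus not shown for any single one of the 40 genes that L-DKO and Gclc L-KO differ more in one pair than in the other. An unadjusted p under 0.05 was found for 23 of the 40 and for 1789 of all 15128 genes. Gclc L-KO values for *Rrm2* were 6.82, 7.40, 7.55 and 7.68 and for *Cdc20* 4.72, 5.33, 5.42 and 5.41.

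L-DKO was above Nrf2 L-KO in 1 gene and below it in 0 (2.65% and 2.61% of all genes). This was *Uhrf1*, with 6.07, 5.51, 6.77 and 6.90 in L-DKO, against 5.53, 5.56, 4.89 and 5.43 in Nrf2 L-KO, a log2 difference of 0.96 (standard error 0.26, adjusted p = 0.0463). The groups overlapped, and the call ended without any 1 library except L-DKO replicate 2, without which 23 genes were called. With the pair as a term 7 genes were called higher and 1 lower (6.41% and 7.04% of all genes). The interaction, that is the L-DKO effect beyond the sum of the 2 single ones, was called for 0 of the 40 genes by limma. It was called higher for 0.225% of all genes and lower for 0.463%. An unadjusted p under 0.05 was found for 2239 of all 15128 genes and for 1 of the 40. That gene was *Tyms*, with an interaction of 0.41 (standard error 0.17, adjusted p = 0.281).

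The 4 G1 to S regulators did not move as 1 group. *Ccnd1*, cyclin D1, which opens the way into the cycle on growth signals, had 11.92, 11.50, 11.01 and 11.17 in L-DKO and 9.94, 9.97, 9.62 and 9.75 in Gclc L-KO. The groups did not overlap, and the log2 difference was 1.58 (standard error 0.36, adjusted p = 0.0151). The call was lost without Gclc L-KO replicate 3, where the difference was still 1.51, and without L-DKO replicate 1 or 2 it was 1 of 2 genes called. WT had 11.36, 11.69, 10.01 and 9.76 and Nrf2 L-KO 11.66, 11.83, 10.89 and 11.64. The WT livers thus split, with replicates 3 and 4 below replicates 1 and 2 by a log2 difference of -1.64 (standard error 0.21, adjusted p = 0.00136), the only one of the 40 genes called for this split (1.76% of all genes higher and 1.33% lower). Against WT, Gclc L-KO was lower in replicates 1 and 2, with a log2 difference of -1.56 (standard error 0.21, adjusted p = 0.00131), and not called in replicates 3 and 4 (-0.20, adjusted p = 0.518). L-DKO was higher than WT in replicates 3 and 4, by 1.21 (standard error 0.21, adjusted p = 0.00212), and not called in replicates 1 and 2 (0.19, adjusted p = 0.641). Nrf2 L-KO was higher than WT in replicates 3 and 4 as well, by 1.38 (standard error 0.21, adjusted p = 0.0145), and it was the only one of the 40 genes called there, where 0.192% of all genes were called higher. That call was lost without Nrf2 L-KO replicate 4, WT replicate 3 or WT replicate 4. Of the 4 genotypes, Gclc L-KO was the one whose *Ccnd1* values were low in both pairs. *Ccne2*, cyclin E2, had 4.75, 5.13, 5.87 and 5.47 in L-DKO and 5.40, 5.35, 5.79 and 5.79 in Gclc L-KO, against 4.91, 5.32, 5.02 and 4.74 in WT. In replicates 3 and 4 L-DKO was above WT by 0.78 (standard error 0.20, adjusted p = 0.0152) and the Gclc L-KO difference was 0.91 (standard error 0.20, adjusted p = 0.00609). Both calls were lost without WT replicate 4, and that of L-DKO also without L-DKO replicate 3. *E2f1*, the activator of S phase genes, was called in no comparison, with a mean of 6.91 ± 0.50 in L-DKO, 7.03 ± 0.18 in Gclc L-KO and 6.60 ± 0.27 in Nrf2 L-KO, against 6.74 ± 0.27 in WT (SD, n = 4 each).

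**Figure D5:**
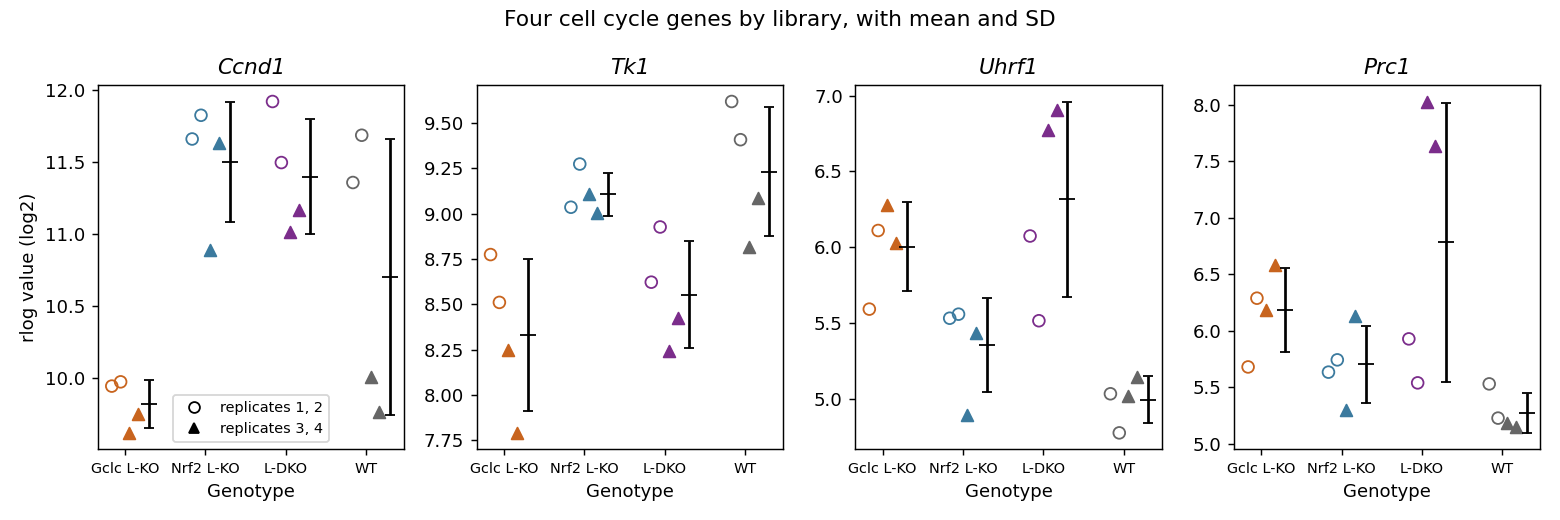
rlog values (log2, vertical axis) of Ccnd1, Tk1, Uhrf1 and Prc1 in each library by genotype, with circles for replicates 1 and 2, triangles for replicates 3 and 4 and bars for the mean and SD of 4 livers. Ccnd1 was low in all Gclc L-KO livers and in WT replicates 3 and 4, Tk1 was lower in Gclc L-KO than in every WT liver, and Prc1 was highest in L-DKO replicates 3 and 4.

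Other genes of the cell cycle were counted in the same fits. Of 59 further mitosis genes, 58 were tested, and 23 were higher in L-DKO than in WT and 0 lower, with a median log2 difference of 0.82 (3.79% and 6.17% of all genes). Within replicates 3 and 4 the numbers were 52 and 0 (10.9% and 14.1% of all genes), and the difference between the pairs was called for 24, all larger in replicates 3 and 4 (1.94% of all genes). With the pair as a term 35 were called higher and 0 lower (7.66% and 11%). The 23 became 43, 0 and 1 without L-DKO replicates 2, 3 and 4 and 11, 5, 8 and 5 without WT replicates 1 to 4. The 24 became 14, 6 and 1 without L-DKO replicates 1, 2 and 3, 0 without WT replicate 1 and 1 without WT replicate 3 or 4. *Hmmr*, a spindle protein that also binds hyaluronan, had 5.40, 4.87, 7.54 and 7.0 in L-DKO, against 4.70, 4.72, 4.32 and 4.45 in WT, a log2 difference of 1.66 (standard error 0.48, adjusted p = 0.0416). *Pbk*, a mitotic kinase, had 4.68, 4.15, 6.11 and 5.76 in L-DKO, against 4.03, 3.98, 3.63 and 3.67 in WT, a log2 difference of 1.35 (standard error 0.33, adjusted p = 0.0241). In both genes every L-DKO library was above every WT library, replicates 3 and 4 by the widest gap and replicate 2 by the narrowest. The call of *Hmmr* was lost without L-DKO replicate 3 or 4 or any 1 WT library, and that of *Pbk* without L-DKO replicate 3 or 4 or WT replicate 3 or 4. *Ckap2l*, a spindle protein, and *Kifc1*, a motor that clusters spindle poles, differed by 1.40 and 1.36 (adjusted p = 0.0344 and 0.0245). The effects in the 2 pairs differed most for *Ckap2*, *Ube2c*, *Hmmr* and *Iqgap3*, by 2.89, 2.52, 2.46 and 2.10. In Gclc L-KO 51 of the 58 differences from WT were positive, with a median of 0.47 (0.003 over all genes). Within replicates 3 and 4, 29 were called higher and 1 lower (13.7% and 16.2% of all genes). Within replicates 1 and 2, 1 was called higher and 1 lower (5.13% and 5.37%). With all 4 livers per genotype 3 of the 58 were higher and 1 lower, a smaller share in each direction than the 10.6% and 12.4% of all genes. These 4 calls became 7, 1 and 2 without Gclc L-KO replicates 1, 3 and 4 and 2 without WT replicate 1. The higher ones were the spindle kinesin *Kif15* (0.87), the CDK-activating phosphatase *Cdc25b* (0.59) and the condensin subunit *Smc2* (0.56). The lower one was *Spc24* of the kinetochore, with 7.06, 6.41, 6.49 and 5.97 in Gclc L-KO, against 7.53, 7.75, 7.81 and 7.86 in WT, a log2 difference of -1.25 (standard error 0.24, adjusted p = 0.00266). *Spc25*, its partner in the same complex, was above its Gclc L-KO level in L-DKO by 0.88 (adjusted p = 0.0355, lost without any 1 library other than L-DKO replicate 1 or 2), as was *Cks2*, a subunit that binds CDKs, by 0.45 (adjusted p = 0.00348). *Cks2* was also higher in L-DKO than in Nrf2 L-KO, by 0.35, a call lost in 6 of the 8 fits with 1 library left out.

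Of 42 further genes of DNA replication, 41 were tested, and 7 were higher in L-DKO than in WT and 2 lower, with a median of 0.18, where 3.79% and 6.17% of all genes were called. The share called lower was thus not above that of all genes. With the pair as a term 13 were called higher and 3 lower (7.66% and 11%). The 9 calls became 16, 1 and 3 without L-DKO replicates 2, 3 and 4 and 4, 4, 5 and 5 without WT replicates 1 to 4. *Prim1*, the catalytic subunit of primase, had 7.12, 7.13, 7.90 and 8.13 in L-DKO, against 6.65, 6.45, 6.64 and 6.62 in WT, a log2 difference of 0.98 (standard error 0.22, adjusted p = 0.0145). The replication checkpoint kinase *Chek1* differed by 0.97 (standard error 0.23, adjusted p = 0.0174) and the origin-firing kinase *Cdc7* by 0.64 (standard error 0.17, adjusted p = 0.033). All of these calls were lost without L-DKO replicate 3, those of *Chek1* and *Cdc7* also without L-DKO replicate 4 or WT replicate 2, and that of *Cdc7* without WT replicate 1 or 4. *Mcm10*, a factor that helps the MCM helicase start, ran against the *Mcm* genes, with 8.39, 8.94, 8.94 and 9.13 in L-DKO and 9.43, 9.10, 8.71 and 8.15 in Gclc L-KO, against 10.02, 10.04, 10.45 and 10.35 in WT. No library of either genotype reached the lowest WT library, and the log2 difference of L-DKO was -1.36 (standard error 0.38, adjusted p = 0.0364) and that of Gclc L-KO -1.37 (standard error 0.38, adjusted p = 0.0188). The L-DKO call was lost without any 1 library other than L-DKO replicate 2, and the Gclc L-KO call without Gclc L-KO replicate 3 or 4. Gclc L-KO had 4 of the 41 higher and 2 lower than WT, where 10.6% and 12.4% of all genes were called, so this count too is not above that of all genes. The higher ones named by size were *Orc2* of the origin recognition complex, *Pole2* of polymerase epsilon and the helicase *Mcm8*, by 0.50, 0.50 and 0.42. The 6 calls fell to 2 without Gclc L-KO replicate 3 or 4 and to 3 without WT replicate 1. In L-DKO against Nrf2 L-KO, *Chek1*, *Cdc45*, *Pold1* and *Pole* were higher, by 1.03, 0.65, 0.55 and 0.48, and *Pold1*, of polymerase delta, was higher than in Gclc L-KO by 0.47. The effect of L-DKO differed between the pairs for 3 of the 41, *Chaf1b*, *Dbf4* and *Cdt1*, by 1.5, 1.23 and 0.90. Of all genes, 1.94% had a larger effect in replicates 3 and 4 and 2.39% a smaller one. Of these 3 genes, 0 or 1 passed without L-DKO replicate 1 or 3 or WT replicate 1, 3 or 4.

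Of 7 inhibitors of cyclin-dependent kinases, 6 were tested and *Cdkn2a* was under the minimum. *Cdkn1a*, the p21 inhibitor that p53 induces, had 10.12, 7.98, 11.06 and 11.02 in L-DKO and 7.30, 8.89, 9.59 and 10.97 in Gclc L-KO, against 6.83, 7.36, 8.49 and 8.29 in WT. L-DKO replicates 3 and 4, the libraries with the highest mitosis values, were also the 2 highest for *Cdkn1a*, but the spread was wide, and neither the L-DKO difference of 2.30 (standard error 0.74, adjusted p = 0.0614) nor the Gclc L-KO difference of 1.45 (standard error 0.74, adjusted p = 0.171) was called. Within replicates 3 and 4 the L-DKO difference of 2.65 (standard error 0.71, adjusted p = 0.0186) passed, as did that of all 4 livers with the pair as a term. *Cdkn2b*, the p15 inhibitor of CDK4 and CDK6, had 3.20, 3.03, 3.08 and 3.0 in L-DKO and 3.13, 4.08, 4.59 and 4.69 in Gclc L-KO, against 2.90, 3.10, 3.20 and 3.33 in WT. Gclc L-KO stood above WT, with a log2 difference of 0.99 (standard error 0.25, adjusted p = 0.0129), and L-DKO below Gclc L-KO, with -1.04 (standard error 0.25, adjusted p = 0.0194), a call lost without L-DKO replicate 4 or Gclc L-KO replicate 3 or 4. *Cdkn1b*, the p27 inhibitor, had 9.30, 9.37, 9.45 and 9.5 in L-DKO and 9.05, 8.96, 9.31 and 9.09 in Gclc L-KO, against 9.72, 9.49, 9.42 and 9.52 in WT. Gclc L-KO stood below WT, with a log2 difference of -0.44 (standard error 0.08, adjusted p = 0.00218), and L-DKO above Gclc L-KO, with 0.30 (standard error 0.08, adjusted p = 0.0316), a call lost without L-DKO replicate 3 or 4 or Gclc L-KO replicate 1, 2 or 4. *Cdkn1c*, *Cdkn2c* and *Cdkn2d* were not called in any genotype against WT, with differences of -0.23 to 0.29 in L-DKO and Gclc L-KO. Within replicates 3 and 4, *Cdkn2c*, the p18 inhibitor, was higher in L-DKO than in WT, by 0.69 (standard error 0.15, adjusted p = 0.00668). It had 7.42, 7.51, 7.52 and 7.71 in L-DKO, against 7.67, 7.50, 6.99 and 6.86 in WT. The WT livers thus split, with replicates 3 and 4 low, while the L-DKO values changed little between the pairs.

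Markers of other liver cells were read beside these results, as the log2 of their summed linear values. The genes with the highest levels weigh most in such a sum, as *Alb* does for hepatocytes and *Cdh1* for cholangiocytes. An rlog value of 0 does not mark absence, and the lowest value of the table was -2.27. The 10 markers of Kupffer cells and macrophages summed to 13.70 to 14.25 in L-DKO and 13.93 to 14.39 in Gclc L-KO, against 13.20 to 13.60 in WT, and 2 and 6 of the 10 were called higher than in WT (3.79% and 10.6% of all genes). In Nrf2 L-KO they summed to 13.32 to 14.49, and 0 of the 10 were called (0.0132% of all genes higher). *Cd68*, a lysosomal protein of macrophages, had 8.99, 8.57, 9.16 and 9.07 in L-DKO, against 8.06, 8.31, 8.16 and 8.14 in WT. The log2 difference was 0.78 (standard error 0.21, limma adjusted p = 0.0354). Its highest L-DKO values were in replicates 3 and 4, while those of the markers *Adgre1*, *Csf1r* and *Timd4* were in replicates 1 and 2. Within L-DKO the 10 summed to 13.97 and 13.70 in replicates 3 and 4 and to 14.25 and 13.78 in replicates 1 and 2. The 10 markers of T, B and NK cells summed to 9.71 and 9.88 in L-DKO replicates 3 and 4 and to 10.27 and 9.81 in replicates 1 and 2, against 9.68 to 9.72 in WT and 9.63 to 10.64 in Nrf2 L-KO. This sum is mostly *Ptprc*, which alone had 9.15 and 9.17 in L-DKO replicates 3 and 4 and 9.77 and 9.20 in replicates 1 and 2. The 6 endothelial markers summed to 12.23 and 11.44 in L-DKO replicates 3 and 4 and to 12.65 and 12.66 in replicates 1 and 2, against 11.96 to 12.70 in WT. Of these 6, *Kdr* and *Stab2* were called below WT within replicates 3 and 4, with log2 differences of -1.04 and -1.02 (14.1% of all genes called lower). L-DKO replicate 4 was the lowest library for both, with 9.03 and 9.47. L-DKO replicate 3 had 9.90 and 10.31, above the 9.58 and 10.27 of WT replicate 1. The 7 stellate cell markers summed to 12.23 to 12.50 in L-DKO, against 11.92 to 12.27 in WT and 11.96 to 12.76 in Nrf2 L-KO, and the highest L-DKO value was in replicate 3. Of these 7, *Col1a1*, *Acta2* and *Col3a1* were called above WT within replicates 3 and 4, with log2 differences of 1.21, 0.74 and 0.74, where 10.9% of all genes were called higher and 14.1% lower. *Col1a1*, a chain of type I collagen, had 8.45, 8.46, 9.34 and 9.43 in L-DKO, against 8.39, 8.56, 8.16 and 8.20 in WT. Outside L-DKO it reached 9.40 (Gclc L-KO replicate 2), 9.23 and 9.18 (Nrf2 L-KO replicates 2 and 4). The other libraries of these genotypes had 8.21 to 8.72. *Col3a1* was 10.90 in L-DKO replicate 4, below Gclc L-KO replicate 2 (10.97) and Nrf2 L-KO replicate 4 (10.99). *Acta2* had 7.57 and 7.70 in L-DKO replicates 3 and 4. WT had 7.48 and 7.65 in replicates 1 and 2, but 6.75 and 7.04 in replicates 3 and 4. Of 8 neutrophil and granulocyte precursor markers, *Ly6g*, *Ngp*, *Camp*, *Ltf*, *Mpo* and *Elane* were under the minimum, and *Ly6g*, *Camp*, *Mpo* and *Elane* were below 0 in every library. The 8 summed to 5.81 to 6.25 in L-DKO, against 5.85 to 6.05 in WT. The 6 cholangiocyte markers summed to 11.33 to 11.75 in L-DKO, against 11.51 to 11.76 in WT. Hepatocyte markers, of which 6 of 6 were measured, summed to 21.06 and 21.17 in L-DKO replicates 3 and 4, 21.52 and 21.84 in L-DKO replicates 1 and 2 and 19.97 to 21.13 in Gclc L-KO, against 21.48 to 21.80 in WT. *Cps1* and *Cyp2e1* of the 6 were below WT in L-DKO by limma within replicates 3 and 4, with log2 differences of -0.83 and -1.23. In Gclc L-KO 4 of the 6 were called lower, with differences of -1.67 for *Cps1*, -1.44 for *Apoa1* and -1.16 for *Cyp2e1*, and the other was *Tat* (12.4% of all genes). The part of any of these cell types in the differences of the cell cycle genes was not tested.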

How the data were processed

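RNA of 16 livers was sequenced from stranded mRNA libraries, 4 per genotype as given in the labels. Per the submitters' processing notes, bcl2fastq 2.20.0, fastp, STAR 2.7.9a, featureCounts of Subread 2.0.1, DESeq2 1.34.0 and R 3.5.1 were used with the assembly GRCm39. The authors deposited rlog values from DESeq2 on the log2 scale, from -2.27 to 21.59, with differences between libraries in depth already removed, so no count model could be run and no counting interval given.

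Genes with a mean of at least 3 over the 16 libraries were fitted in limma 3.58.1 (R 4.3.3) with a mean-variance trend, with 1 mean per genotype and, for the replicate pairs, 1 mean per genotype and pair. P-values are two-sided, Benjamini-Hochberg adjusted over all 15128 genes of a comparison, with a threshold of 0.05. The procedure was tested on simulated data. Comparisons with WT share the same 4 WT livers. Genes given in every library are up to 6 per role with the largest called difference in a comparison and those called against the direction of their role. Of the other lists, up to 4 called genes per comparison are named, and all CDK inhibitors. The 40 genes, the lists, the split into pairs and the rules were chosen with earlier results of these data known. Alternatives were no minimum or a minimum of 6, no trend, quantile normalization, array weights, a replicate block, the pair as a term, only the groups compared, each pair alone and leaving out each library. The erythroid marker list is not reported here. Figures were drawn with matplotlib 3.10.9 in Python 3.11.15. Promoter sequences are from RefSeq on GRCm38.p6, and no coordinate of the deposited table was used.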

Additional observations from a re-analysis of the deposited data

Results flagged for a closer look

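In 14 of the 160 sets of 4 libraries (40 genes in 4 genotypes) 1 library stood far from the other 3 by Dixon's criterion, which chance alone meets in about 1 set in 20. In 9 of the 14 it was Gclc L-KO replicate 1, always the lowest. Its values were 6.85 for *Mcm5* (7.54 to 7.62 in the others), 8.47 for *Mcm7* (8.66 to 8.68), 6.91 for *Top2a* (7.72 to 7.80), 3.83 for *Ccnb1* (4.73 to 4.86), 5.57 for *Cdk1* (6.38 to 6.46), 5.45 for *Bub1b* (6.08 to 6.18), 4.23 for *Plk1* (5.02 to 5.14), 4.72 for *Cdc20* (5.33 to 5.42) and 5.49 for *Tpx2* (6.03 to 6.12). Nrf2 L-KO replicate 3 was low for *Top2a* (6.37, with 7.0 to 7.10 in the others) and *Kif11* (5.24, with 6.06 to 6.15). WT replicate 2 was low for *Mcm7* (8.32, with 8.58 to 8.63) and *Rrm2* (6.75, with 7.11 to 7.14), and WT replicate 1 was high for *Foxm1* (5.30, with 4.86 to 4.93).

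The effect of L-DKO against WT differed between replicates 3 and 4 and replicates 1 and 2 for 15 genes, tested in limma as a difference of effects. The differences, all larger in replicates 3 and 4, were 2.47 (adjusted p = 0.0414) for *Cdc20*, 2.31 (adjusted p = 0.0167) for *Prc1*, 2.21 (adjusted p = 0.0158) for *Cdk1*, 2.21 (adjusted p = 0.0215) for *Ect2* and 2.19 (adjusted p = 0.0263) for *Tpx2*. They were 2.03 (adjusted p = 0.0407) for *Ccnb2*, 1.92 (adjusted p = 0.0158) for *Ccne1*, 1.89 (adjusted p = 0.0303) for *Kif11*, 1.83 (adjusted p = 0.0192) for *Birc5* and 1.82 (adjusted p = 0.0254) for *Nusap1*. They were 1.63 (adjusted p = 0.0435) for *Plk1*, 1.60 (adjusted p = 0.0286) for *Foxm1*, 1.5 (adjusted p = 0.0158) for *Rrm2*, 1.49 (adjusted p = 0.0428) for *Aurka* and 0.67 (adjusted p = 0.0435) for *Pcna*. The effect in replicates 1 and 2 was below 0 for *Ccne1* (-0.65), *Ect2* (-0.17), *Pcna* (-0.11) and *Kif11* (-0.03).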

How the results depend on the processing

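The rlog values carry no read counts, so depth limits on low genes could not be set. With 4 livers per genotype the counts of called genes depend on single livers and on how the spread is pooled, while no called gene changed direction under any alternative run. Counts are given as alternative against the value in the report. A minimum of 6 takes genes with a lower mean out of the test, such as *Uhrf1* (5.67), *Tpx2* (5.64) and *Prc1* (5.98). No gene that stayed in the test lost its call. The smaller counts under that minimum thus come from fewer genes tested. Leaving out L-DKO replicates 3 and 4 together and the within-pair counts under other settings were added after the data were seen. L-DKO against WT (18) gave 9 with a minimum of 6, 29 with the pair as a term, 4 with only these groups, 0 with replicates 1 and 2 only, 37 with replicates 3 and 4 only, 0 without both L-DKO replicates 3 and 4, and 1 to 32 without any 1 library. Gclc L-KO against WT (10) gave 21 with only these groups, 2 and 19 with replicates 1 and 2 only and 3 and 4 only, and 3 to 11 without any 1 library. L-DKO against Nrf2 L-KO (1) gave 0 with no minimum, a minimum of 6, array weights, only these groups, replicates 1 and 2 only or without both L-DKO replicates 3 and 4, 8 with the pair as a term, 34 with replicates 3 and 4 only, and 0 to 23 without any 1 library. With replicates 3 and 4 only, L-DKO against Gclc L-KO (1) gave 22, Nrf2 L-KO against WT (0) gave 1 and the interaction (0) gave 1. L-DKO against Gclc L-KO gave 0 to 2 without any 1 library. The difference between pairs (15) gave 7 with a minimum of 6 for L-DKO and 0 to 15 without any 1 library, and for Gclc L-KO (0) it gave 1 with array weights and 0 to 1 without any 1 library. Within replicates 3 and 4, a minimum of 6 gave 17 for L-DKO against WT (36), 11 for Gclc L-KO against WT (18) and 11 for L-DKO against Gclc L-KO (24), and array weights gave 28 for Gclc L-KO against WT and 2 for Nrf2 L-KO against WT (1). Without any 1 library these were 31 to 34, 5 to 11, 9 to 16 and 0 to 1. Within replicates 1 and 2, L-DKO against WT (1) gave 0 with no minimum, no trend, quantile normalization or array weights and 0 to 1 without any 1 library, and Gclc L-KO (6) gave 3 with array weights and 1 to 11 without any 1 library.

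With a replicate block the counts were 12 for Gclc L-KO against WT, 0 for Nrf2 L-KO against WT, 23 for L-DKO against WT, 1 for L-DKO against Gclc L-KO, 3 for L-DKO against Nrf2 L-KO and 0 for the interaction. Deviations of same-numbered livers correlated above 0.1 in 20 of 24 cases (-0.07 to 0.55), and those of livers of the same pair with another number also in 20 of 24 (-0.19 to 0.61). Not every same-numbered case was above 0.1, so the numbers were not read as pairs.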

Other observations

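Of 17 other G1 cyclins, kinases, E2F and RB family genes, all tested, Gclc L-KO had 1 above WT and 2 below it, with a median log2 difference of 0.13, where 10.6% and 12.4% of all genes were called, so that the list's share was not above that of all genes. *E2f3*, an activating E2F, had 8.37, 8.47, 8.84 and 8.84 in Gclc L-KO, against 7.88, 8.01, 8.33 and 8.30 in WT, a log2 difference of 0.50 (standard error 0.14, adjusted p = 0.0229) by limma. *Tfdp2*, a partner of E2F factors, had 9.36, 9.18, 9.19 and 8.78 in Gclc L-KO, against 9.72, 9.63, 9.60 and 9.42 in WT, a log2 difference of -0.47 (standard error 0.15, adjusted p = 0.0404), and *Cdk2*, the kinase partner of cyclins E and A, differed by -0.36 (standard error 0.11, adjusted p = 0.0366). In L-DKO 1 was higher and 1 lower than in WT, where 3.79% and 6.17% of all genes were called. *Rbl1*, the p107 relative of RB, had 7.38, 6.97, 7.36 and 7.35 in L-DKO, against 6.69, 6.38, 6.55 and 6.60 in WT, a log2 difference of 0.71 (standard error 0.16, adjusted p = 0.0165), and *Tfdp2* had 9.24, 9.40, 8.93 and 8.74 in L-DKO and a log2 difference of -0.51 (standard error 0.15, adjusted p = 0.0468). Every L-DKO library lay above every WT library for *Rbl1*, replicates 1 and 2 included. The call of *Rbl1* was lost without L-DKO replicate 3 or 4, and that of *Tfdp2* in L-DKO without any 1 library other than L-DKO replicate 2. In Gclc L-KO the call of *E2f3* was lost without Gclc L-KO replicate 3 or 4 or WT replicate 1 or 2, that of *Tfdp2* without any 1 library other than Gclc L-KO replicate 1 or WT replicate 4, and that of *Cdk2* without any 1 other than Gclc L-KO replicate 1 or WT replicate 3.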
